A study of Mus musculus with 90 samples.

Results

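Activins and bone morphogenetic proteins (BMPs) are secreted ligands of the TGF-beta family, and 10 of the 38561 genes in the deposited count tables, chosen by symbol as listed ligand, antagonist and receptor genes of this signalling, are described here across striatum and cortex of a Huntington's disease mouse model. The list was not drawn up from a threshold on the measured values, although earlier results of these data were known when it was made. The ligand genes were Inhba and Inhbb, which encode the beta subunits that pair to form activins, and Bmp4, which encodes a BMP. The antagonist genes were Fst (follistatin) and Fstl3, whose products bind activins outside the cell, and Nog (noggin), whose product binds BMPs. Fstl4, which encodes a protein with a follistatin domain, was listed as follistatin-like and not as an antagonist. The receptor genes were Acvr2a, encoding a type II receptor, and Acvr1c and Acvr1, encoding type I receptors. All 10 were measured in all 90 libraries, and all 10 passed the filter on low counts in both tissues.

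Activins bind a type II receptor, which recruits and phosphorylates a type I receptor, and the pair then phosphorylates Smad proteins that enter the nucleus and regulate transcription. Follistatin wraps around activin and blocks its access to both receptor types, and noggin does the same for several BMPs, so ligand and antagonist levels together set how much ligand can signal. In brain, Inhba is known as a gene that neurons induce with synaptic activity, and activin A is known for neuroprotective actions. ACVR1C is a receptor for activin B and some other family ligands, and ACVR1 mainly transmits BMP signals.

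The groups were Q175 mice on vehicle (7 mice), Q175 mice given PF-02545920, which inhibits the enzyme PDE10A (a phosphodiesterase that degrades cyclic nucleotides), at 0.32 mg/kg (10 mice), 1.0 mg/kg (10 mice) or 3.2 mg/kg (9 mice), and wild-type (WT) mice on vehicle (9 mice). The Q175 mice carried the expanded Htt knock-in allele on both chromosomes, all mice were C57BL6/J, and dosing was oral, once a day, beginning at 5 weeks of age and ending at 9 months, when tissue was taken. The vehicle arm of Q175 mice held 5 females and 2 males, and the other arms held 5 females and 4 or 5 males. WT mice received vehicle and no inhibitor, so the inhibitor was compared within Q175 mice. Striatum and cortex of the right hemisphere came from each of the 45 mice, which gave 90 RNA-seq libraries with 30.5 to 44.9 M counts (M, 1000000) assigned to genes in striatum and 37.2 to 45.8 M in cortex. Htt averaged 114 ± 6.3 counts per M counts (CPM) in Q175 vehicle striatum (SD, n = 7) and 198 ± 14.5 CPM in WT striatum (SD, n = 9), and every one of the 36 Q175 mice lay below every WT mouse in both tissues. The tissue labels matched the marker lists: 12 of 12 medium spiny neuron markers were higher and 10 of 10 cortical excitatory neuron markers were lower in WT striatum than in WT cortex.

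Promoter sequences are given for the member that the inhibitor changed in striatum, Inhba, and for the member whose window held a cyclic AMP response element (CRE), Fstl4, an element known to mediate transcription driven by cyclic AMP. They are the 250 bases before the annotated start, from RefSeq on GRCm38.p6, 5' to 3' on the plus strand, at chr13:16011601-16011850 and chr11:52764456-52764705, with the CRE letters in capitals.
Inhba: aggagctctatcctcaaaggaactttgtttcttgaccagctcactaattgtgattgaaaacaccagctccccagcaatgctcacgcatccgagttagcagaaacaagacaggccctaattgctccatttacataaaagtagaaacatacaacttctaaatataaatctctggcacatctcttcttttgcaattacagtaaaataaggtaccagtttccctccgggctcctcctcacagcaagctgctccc
Fstl4: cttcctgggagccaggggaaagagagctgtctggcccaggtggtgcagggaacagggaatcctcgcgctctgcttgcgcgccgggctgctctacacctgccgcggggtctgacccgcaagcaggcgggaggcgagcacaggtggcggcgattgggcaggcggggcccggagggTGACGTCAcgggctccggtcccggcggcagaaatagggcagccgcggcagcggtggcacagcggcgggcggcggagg

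Windows of 300 bases, 250 before and 50 after the start, were read for 8 of the 10 members, Acvr1c having 2 of them. The palindromic CRE, TGACGTCA, was searched on both strands and was found in 1.79% of 32851 mouse promoter windows, and among the members only in Fstl4, where its first base lay 77 bases before the RefSeq start. In the GENCODE annotation Fstl4 starts at 52764634, within the stretch printed above, so the place of the CRE relative to the start depends on the annotation. The shorter CRE core TGACG, which the full CRE contains, was in 20.8% of windows and likewise only in Fstl4 among the members. The AP-1 motif TGANTCA was in 7.81% of windows and in none of the members' windows. The Inhba window was the least GC-rich of the 9, at 47.7% GC, and 32% of all windows had less. These letter matches describe the windows and say nothing of whether a factor binds there.

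In GRCm38, Inhba lies on chromosome 13 at 16011851 to 16031621 on the plus strand and Fst on the same chromosome at 114452290 to 114458951 on the minus strand. Inhbb lies on chromosome 1 at 119415465 to 119422248 (minus), Fstl3 on chromosome 10 at 79777272 to 79782630 (plus), Fstl4 on chromosome 11 at 52764634 to 53188538 (plus) and Nog on the same chromosome at 89300638 to 89302332 (minus). Acvr2a lies on chromosome 2 at 48814109 to 48903269 (plus), and Acvr1c, at 58267453 to 58357895 (minus), and Acvr1, at 58388644 to 58567157 (minus), are neighbours there with 30748 bases between them. Bmp4 lies on chromosome 14 at 46383520 to 46390669 (minus). The sources used here do not state whether counting used the strand. Over whole gene intervals, introns included, 8 of the 10 genes, all but Inhbb and Nog, overlap an annotated gene on the opposite strand. For those 8, reads from a stretch shared with the partner could come from either gene. How much exon sequence is shared was not examined.

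In WT mice the members differed in level and in tissue. On the authors' FPKM scale (fragments per kilobase of transcript and per library total, which allows levels of different genes to be compared), the receptors led in striatum, with Acvr1 at 11.8, Acvr1c at 8.58 and Acvr2a at 6.71 FPKM. Inhba stood at 3.76 FPKM there, against 1.5 FPKM for Fst and 0.957 FPKM for Inhbb, and Bmp4 and Nog were lowest, at 0.686 and 0.600 FPKM. In WT cortex the order was different: Acvr2a (10.5 FPKM), Acvr1 (8.63 FPKM) and Fstl4 (6.56 FPKM) led, Nog stood at 3.26 FPKM, and Fst was lowest at 0.958 FPKM.

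All 10 members differed between WT striatum and WT cortex of the same mice, 5 higher and 5 lower in striatum, in a paired edgeR quasi-likelihood test with Benjamini-Hochberg adjustment over all genes (called at an adjusted p below 0.05). In that comparison 73.6% of all tested genes were called, 38.3% higher and 35.3% lower in striatum, so a call there does not set the members apart. The receptor gene Acvr1c had the largest striatal excess of the members, with 83.1 ± 12.4 CPM in striatum and 23.4 ± 1.07 CPM in cortex (SD, n = 9 each), a log2 difference of 1.82 ± 0.058 (SE, adjusted p = 3.35e-30). Inhba followed, with 6.32 ± 1.64 CPM in striatum and 3.05 ± 0.827 CPM in cortex, a log2 difference of 1.04. Fst (0.70), Acvr1 (0.51) and Fstl3 (0.48) were also higher in striatum on the log2 scale. Nog had the largest cortical excess, with 1.23 CPM in striatum and 6.43 CPM in cortex, a log2 difference of -2.41 ± 0.10 (adjusted p = 2.25e-25). Bmp4 (-0.77), Acvr2a (-0.59), Inhbb (-0.54) and Fstl4 (-0.39) were lower in striatum as well.

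Q175 striatum on vehicle had less RNA of Inhba, of the activin antagonists Fst and Fstl3, of Fstl4 and of both type I receptor genes than WT striatum, and more of Bmp4 and Acvr2a. Thus 8 of the 10 members were called, 2 higher and 6 lower, where 45.1% of all tested genes were called, 21.9% higher and 23.2% lower. The members' median log2 change was -0.37 and the median over all genes was 0. For the separate ranges given below, the share of all genes so separated was not counted, so separation does not set the members apart. Of the calls over all genes, 48.5% were higher by this test and 75.3% with limma on log2(FPKM + 0.1), a scaling under which no member's call was lost or reversed. In whole tissue, fewer cells that make an RNA and less of that RNA in each cell cannot be told apart.

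**Figure D1:**
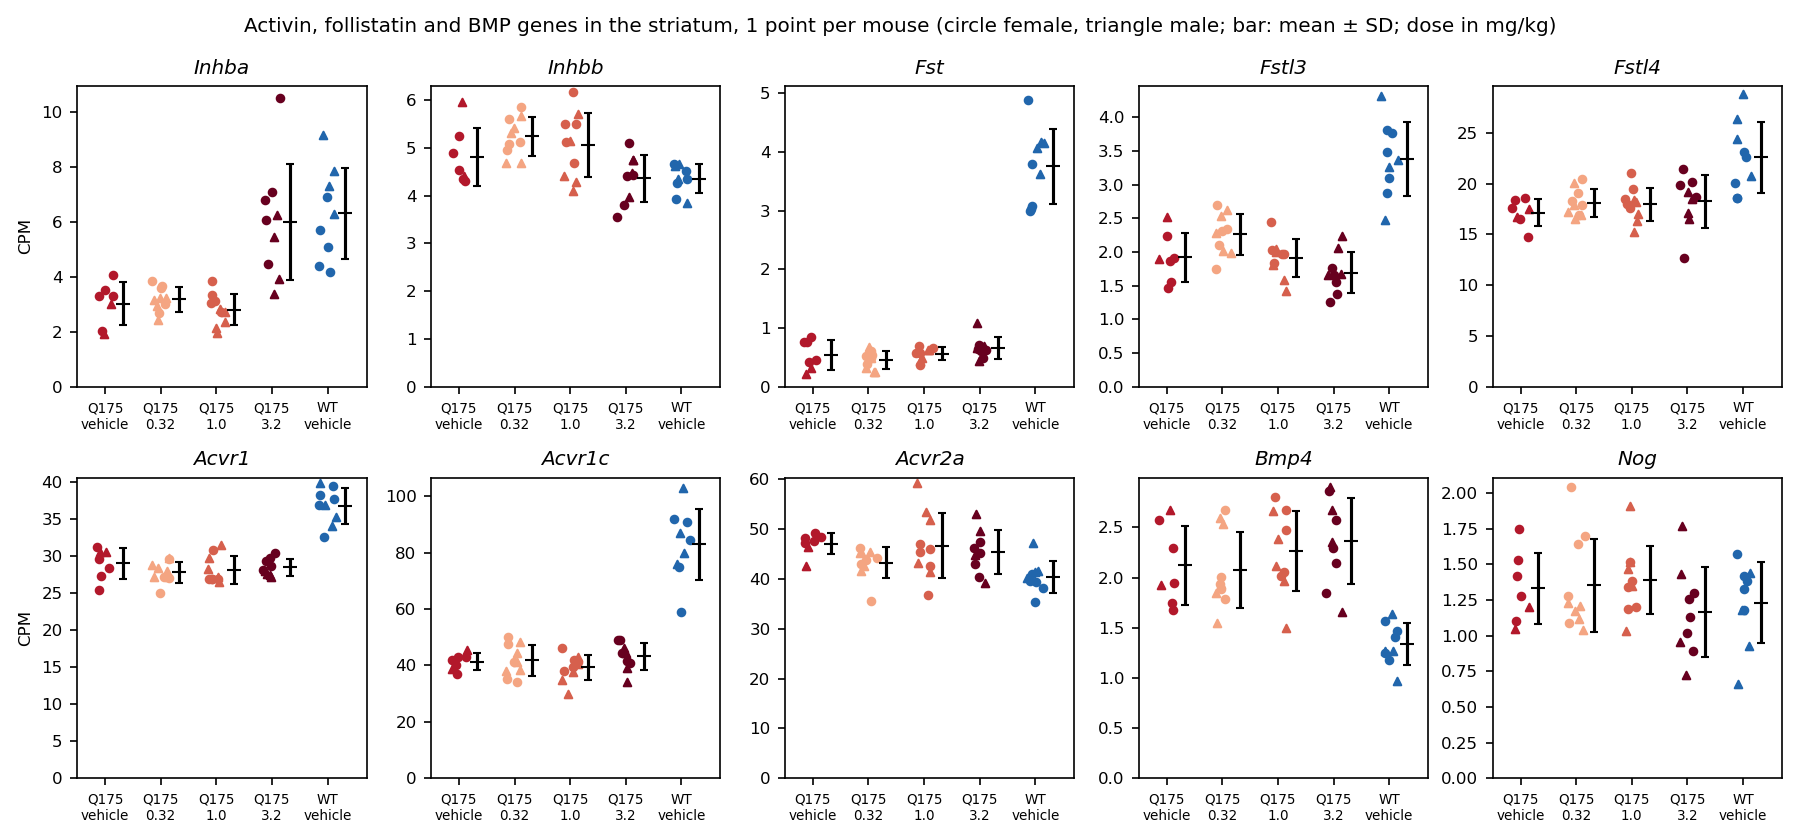
Striatal CPM of the 10 members in every mouse, one panel per gene, with the Q175 vehicle, 0.32, 1.0 and 3.2 mg/kg arms and the WT arm along the horizontal axis, where circles are females, triangles are males and bars mark the mean and SD of each arm. Fst lies below every WT mouse in all 36 Q175 mice, and Inhba at 3.2 mg/kg reaches into the WT range.

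Fst, the activin antagonist, was the most strongly lowered member. Its lowest, median and highest values were 0.214, 0.459 and 0.854 CPM in Q175 vehicle striatum, against 2.99, 3.79 and 4.89 CPM in WT striatum. The ranges lay far apart, and all 36 Q175 mice of the 4 arms (0.214 to 1.09 CPM) were below all 9 WT mice. The log2 change was -2.81 ± 0.20 (SE, adjusted p = 4.02e-16). These were small numbers of reads, 9 to 38 per library in Q175 mice and 85 to 177 in WT mice, so values of single Q175 mice carry a large counting error.

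Inhba, which encodes the subunit of activin A, fell as well. It had 1.93, 3.31 and 4.06 CPM (lowest, median and highest) in Q175 vehicle striatum, against 4.17, 6.28 and 9.15 CPM in WT striatum. The groups did not overlap, although the highest Q175 vehicle mouse and the lowest WT mouse were close. The log2 change was -1.10 ± 0.18 (adjusted p = 1.33e-06). Inhbb, which encodes the subunit of activin B, had 4.31, 4.54 and 5.95 CPM in Q175 vehicle striatum and 3.85, 4.35 and 4.66 CPM in WT striatum, with overlapping ranges and a log2 difference of 0.14 ± 0.081 that did not pass the test (adjusted p = 0.159). With offsets for GC content and length, and on both FPKM scales, Inhbb did pass, in the same direction.

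Fstl3, the other activin-binding antagonist, had 1.47, 1.90 and 2.52 CPM in Q175 vehicle striatum, against 2.47, 3.36 and 4.31 CPM in WT striatum. The ranges touched only at their ends, and the log2 change was -0.81 ± 0.12 (adjusted p = 2.01e-07). Fstl4 had 14.7, 17.5 and 18.6 CPM in Q175 vehicle striatum and 18.6, 22.6 and 28.8 CPM in WT striatum, a log2 change of -0.40 ± 0.083 (adjusted p = 0.000103). All 3 genes with a follistatin domain among the members were thus lower, Fst by the largest amount.

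Of the receptors, Acvr1c fell most. It had 37.1, 42.0 and 45.6 CPM in Q175 vehicle striatum, against 58.9, 84.6 and 103 CPM in WT striatum, and all 36 Q175 mice (30 to 50 CPM) were below every WT mouse. The log2 change was -1.01 ± 0.088 (adjusted p = 3.89e-13). Its neighbour Acvr1 had 25.4, 29.6 and 31.2 CPM in Q175 vehicle striatum, against 32.5, 36.9 and 39.8 CPM in WT striatum, a smaller log2 change of -0.34 ± 0.045 (adjusted p = 1.69e-08), and again all 36 Q175 mice lay below the WT range. The type II receptor gene Acvr2a went the other way, with 42.6, 47.5 and 49.1 CPM in Q175 vehicle striatum and 35.3, 40.2 and 47.2 CPM in WT striatum. These ranges overlapped and the log2 change of 0.24 ± 0.064 (adjusted p = 0.0022) was lost when the L number in the library names was added as a term (0.19, adjusted p = 0.064).

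Bmp4 was the member with the clearest rise. It had 1.68, 1.95 and 2.67 CPM in Q175 vehicle striatum, against 0.971, 1.27 and 1.64 CPM in WT striatum, with no overlap, and 34 of all 36 Q175 mice lay above the highest WT mouse. The log2 change was 0.66 ± 0.14 (adjusted p = 8.59e-05). Nog, its antagonist, had 1.05, 1.28 and 1.75 CPM in Q175 vehicle striatum and 0.662, 1.33 and 1.57 CPM in WT striatum, and its log2 difference of 0.08 ± 0.16 did not pass the test (adjusted p = 0.715).

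Cell type markers were read in the same comparison, where 45.1% of all tested genes were called, 21.9% higher and 23.2% lower. Of 12 medium spiny neuron markers, 11 were lower and none higher in Q175 vehicle striatum, and their summed level was 3973 to 4760 CPM in Q175 vehicle mice, against 8482 to 11597 CPM in WT mice. Of 8 markers of oligodendrocyte precursors and committed precursors, cells in which Bmp4 is also expressed, 1 was higher and 1 lower. The summed level of these 8 was 521 to 733 CPM in Q175 vehicle mice and 468 to 660 CPM in WT mice. Of 8 interneuron markers 7 were lower, of 8 astrocyte markers 6 were lower and 1 higher, and of 8 microglial markers 3 were higher. Of 20 activity-regulated genes, a list without members of the pathway, 13 were lower and 1 higher. Their part in the members' changes was not tested.

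In cortex, Fst, Inhba, Fstl4, Acvr1c, Nog and Acvr1 were lower and Bmp4 was higher in Q175 vehicle mice than in WT mice. Of the 10 members 7 were thus called, 1 higher and 6 lower, where 30.4% of all tested genes were called, 14.0% higher and 16.4% lower. The members' median log2 change was -0.25 and that of all genes was 0.002. Of all calls 46.0% were higher by this test, 67.0% on log2(FPKM + 0.1) and 56.8% with offsets for GC content and length.

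**Figure D2:**
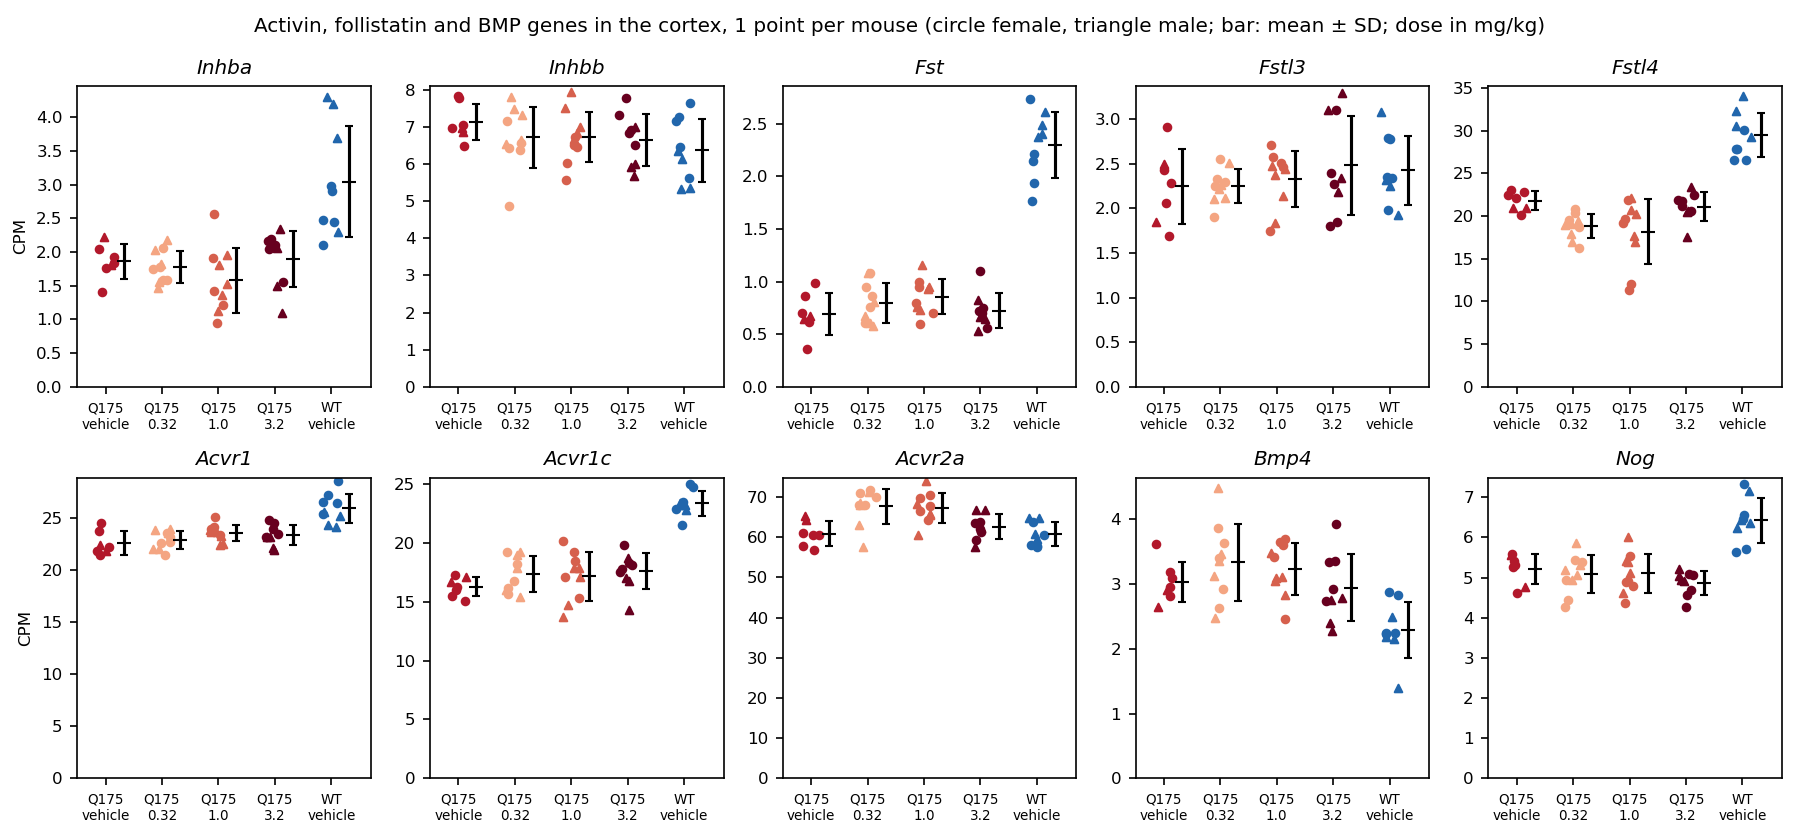
Cortical CPM of the 10 members in every mouse, laid out as for striatum, with circles for females, triangles for males and bars for the mean and SD of each arm. Fst, Fstl4 and Acvr1c lie below every WT mouse in all 36 Q175 mice, and 2 females at 1.0 mg/kg have the lowest Fstl4 values, 11.3 and 12 CPM.

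Fst was again the most strongly lowered member, with 0.357, 0.672 and 0.982 CPM in Q175 vehicle cortex, against 1.77, 2.37 and 2.74 CPM in WT cortex (log2 change -1.73 ± 0.15, adjusted p = 1.78e-12). Inhba had 1.41, 1.84 and 2.23 CPM in Q175 vehicle cortex and 2.11, 2.91 and 4.30 CPM in WT cortex (-0.69 ± 0.16, adjusted p = 0.000604), and its ranges overlapped slightly. Acvr1c had 15.1, 16.3 and 17.3 CPM in Q175 vehicle cortex, against 21.5, 23.2 and 25 CPM in WT cortex (-0.53 ± 0.060, adjusted p = 1.64e-09). For Fst and Acvr1c, as for Fstl4, no Q175 mouse of any arm reached the lowest WT mouse. How many of all genes were so separated was not counted in cortex either, so this does not set these members apart. Fstl4 had 20.1, 22.1 and 23.1 CPM in Q175 vehicle cortex, against 26.6, 29.3 and 34.1 CPM in WT cortex (-0.43 ± 0.087, adjusted p = 0.000139). Nog, which did not pass in striatum, had 4.62, 5.31 and 5.59 CPM in Q175 vehicle cortex, against 5.65, 6.43 and 7.34 CPM in WT cortex (-0.29 ± 0.061, adjusted p = 0.000226). Acvr1 had 21.4, 22.2 and 24.5 CPM in Q175 vehicle cortex and 24.1, 25.5 and 28.5 CPM in WT cortex (-0.21 ± 0.031, adjusted p = 6.69e-07). The noggin ranges were separate and the Acvr1 ranges overlapped slightly.

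Bmp4 rose in cortex too, with 2.64, 2.95 and 3.62 CPM in Q175 vehicle mice and 1.40, 2.24 and 2.88 CPM in WT mice (0.38 ± 0.11, adjusted p = 0.00689). Fstl3 had 1.69, 2.28 and 2.91 CPM in Q175 vehicle cortex and 1.93, 2.34 and 3.08 CPM in WT cortex, and Acvr2a had 56.7, 60.6 and 65.3 CPM and 57.6, 60.5 and 64.9 CPM in the same groups. Neither passed the test (adjusted p = 0.535 and 0.98), and neither did Inhbb (log2 difference 0.16, adjusted p = 0.118), which did pass with offsets for GC content and length and on both FPKM scales. The 12 medium spiny neuron markers were all lower in Q175 vehicle cortex, where their summed level was 475 to 647 CPM, against 806 to 1021 CPM in WT cortex. Of the 20 activity-regulated genes 16 were lower, where 16.4% of all tested genes were lower. The part of either list in the cortical changes was not tested.

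The difference between the tissues in the size of the genotype change was tested in the paired fit over all 90 libraries. It passed for 4 members, where 22.1% of all tested genes passed, 9.92% towards a more positive and 12.2% towards a more negative change in striatum. Of the calls over all genes, 44.9% were in the positive direction by this test and 73.3% on log2(FPKM + 0.1). The striatal change was more negative for Fst by 1.12 on the log2 scale (difference -1.12 ± 0.20, adjusted p = 2.95e-05), for Fstl3 (-0.70 ± 0.14, adjusted p = 0.000102) and for Acvr1c (-0.47 ± 0.089, adjusted p = 6.36e-05). It was more positive for Acvr2a (0.23 ± 0.070, adjusted p = 0.0123). For Inhba the difference was -0.41 ± 0.19 and did not pass (adjusted p = 0.113). Of the 12 medium spiny neuron markers, 6 also had a more negative and 1 a more positive change in striatum, and their part in the difference was not tested.

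**Figure D3:**
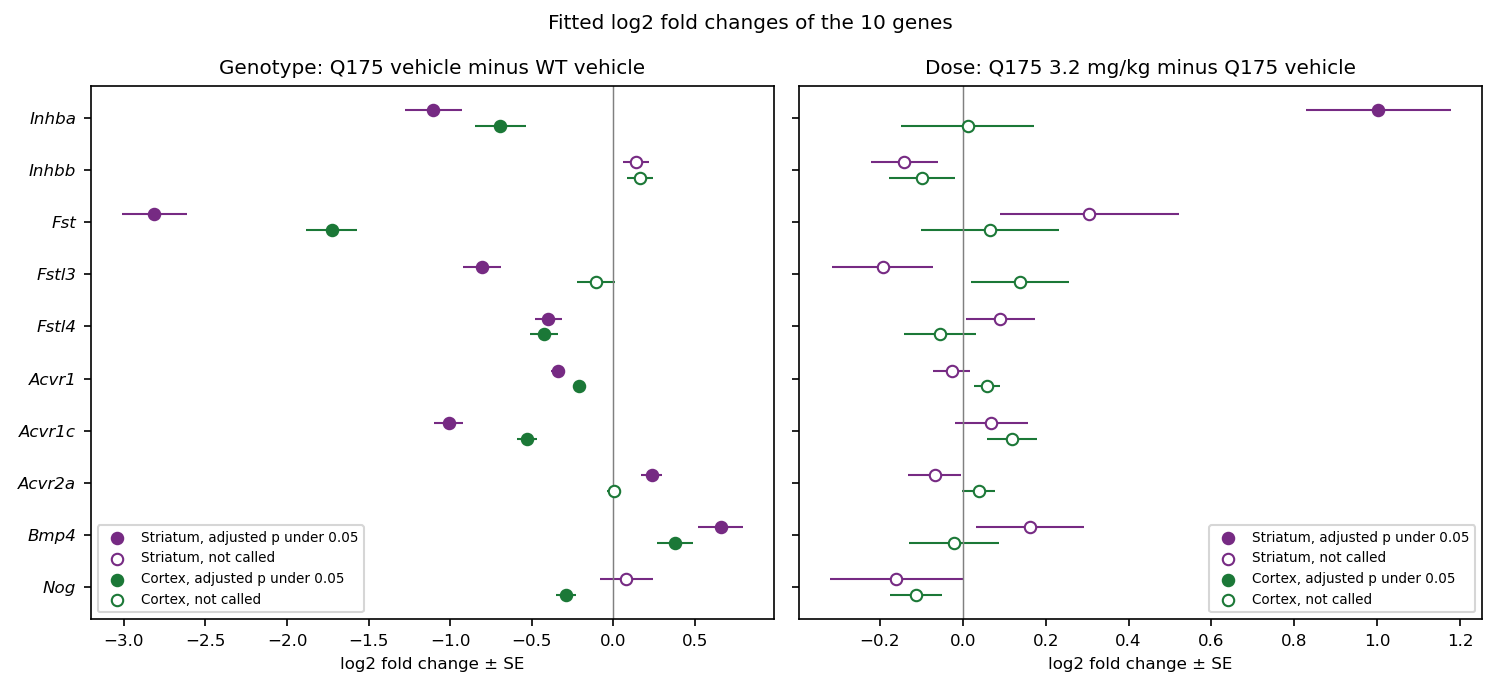
Log2 change with its SE for each of the 10 members in striatum (purple) and cortex (green), for Q175 vehicle minus WT on the left and 3.2 mg/kg minus vehicle on the right, where filled symbols passed an adjusted p of 0.05 and open symbols did not. Fst lies farthest from 0 in both tissues for genotype (-2.81 and -1.73), and Inhba is the member called for 3.2 mg/kg against vehicle (1.00, striatum).

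The inhibitor changed 1 member in striatum at the highest dose. Inhba had 3.37, 6.05 and 10.5 CPM in Q175 striatum at 3.2 mg/kg, against 1.93, 3.31 and 4.06 CPM in Q175 vehicle striatum, and 7 of the 9 mice at 3.2 mg/kg lay above the highest vehicle mouse. The mean was 5.99 ± 2.12 CPM at 3.2 mg/kg (SD, n = 9) and 3.02 ± 0.786 CPM on vehicle (SD, n = 7), a log2 change of 1.00 ± 0.18 (adjusted p = 0.00015). It was 1 of 10 members, where 1.48% of all tested genes were called. Of the Q175 arms, the one at 3.2 mg/kg also had the widest spread between mice.

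At the lower doses Inhba stayed near the vehicle level. It had 2.43, 3.19 and 3.84 CPM at 0.32 mg/kg and 1.96, 2.78 and 3.85 CPM at 1.0 mg/kg, both within the vehicle range. No member was called in striatum at 0.32 mg/kg, where 2.49% of all tested genes were called, or at 1.0 mg/kg, where 1.07% were, by edgeR or by DESeq2, and 1 (Acvr2a, -0.14) and 0 members had an unadjusted p below 0.05 there. In the test of a linear trend over the 4 dose arms, coded as equal steps from vehicle to 3.2 mg/kg, Inhba was the only member called, with 0.32 ± 0.060 log2 units per step (adjusted p = 0.000729), where 1.77% of all tested genes were called. The values by arm show a level raised at 3.2 mg/kg and not a rise at each step, and the trend call was lost with the L number of the library names as a term (0.31, adjusted p = 0.058).

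The other members did not pass at 3.2 mg/kg in striatum. Fst had 0.441, 0.643 and 1.09 CPM at 3.2 mg/kg, against 0.214, 0.459 and 0.854 CPM on vehicle, a log2 difference of 0.31 ± 0.22 (adjusted p = 0.833). Acvr1c had 34.3, 44.4 and 49.1 CPM at 3.2 mg/kg and 37.1, 42.0 and 45.6 CPM on vehicle, with a log2 difference of 0.07. On the log2 scale Fstl3 differed by -0.19, Nog by -0.16, Inhbb by -0.14, Acvr2a by -0.07 and Acvr1 by -0.03. Bmp4 differed by 0.16 and Fstl4, the member with the CRE, by 0.09. The ranges of all these genes overlapped between the 2 arms.

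The activity-regulated genes also differed between these arms. Of those 20 genes 17 were higher and none lower at 3.2 mg/kg than on vehicle in striatum. Their summed level was 1170 to 2770 CPM at 3.2 mg/kg, against 507 to 875 CPM on vehicle. Over all tested genes 1.48% were called in either direction. Of the 12 medium spiny neuron markers 1 was higher and 1 lower. The part of either list in the Inhba change was not tested.

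The 3.2 mg/kg change of Inhba differed between the tissues. In cortex it had 1.09, 2.06 and 2.35 CPM at 3.2 mg/kg and 1.41, 1.84 and 2.23 CPM on vehicle, and the striatal minus cortical difference in log2 change was 0.98 ± 0.19 (adjusted p = 0.00109). No other member passed that test, where 1.28% of all tested genes did.

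Set against WT striatum, Q175 striatum at 3.2 mg/kg differed in 7 of the 10 members, 2 higher and 5 lower, where 51.0% of all tested genes were called, 25.4% higher and 25.6% lower. Of those calls over all genes 49.8% were higher by this test and 72.9% on log2(FPKM + 0.1). Inhba averaged 5.99 ± 2.12 CPM at 3.2 mg/kg and 6.31 ± 1.65 CPM in WT mice (SD, n = 9 each), and its log2 difference of -0.10 ± 0.16 did not pass (adjusted p = 0.623). These means pool the sexes. Inhba averaged 6.98 CPM in females at 3.2 mg/kg and 5.24 CPM in WT females, but 4.75 and 7.64 CPM in males. Whether this comparison differed by sex was not tested. Fst at 3.2 mg/kg was far below WT (-2.51 ± 0.17, adjusted p = 1.48e-16), as did Fstl3 (-1.0 ± 0.11, adjusted p = 1.77e-10) and Acvr1c (-0.94 ± 0.081, adjusted p = 1.68e-13). Fstl4 (-0.31) and Acvr1 (-0.37) were lower, and Bmp4 (0.82 ± 0.13, adjusted p = 4.66e-07) and Acvr2a (0.17, adjusted p = 0.0163) were higher. The Acvr2a call was lost with the L number of the library names as a term (0.15, adjusted p = 0.08), which left 6 members. The comparisons with vehicle and with WT share the 3.2 mg/kg mice.

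In cortex no gene at all was called at 3.2 mg/kg against vehicle (0%) or for the dose trend (0%) by edgeR's quasi-likelihood test, while 1307 and 756 genes had an unadjusted p below 0.05, and DESeq2 called 3 and 0 genes with 1285 and 723 below an unadjusted 0.05. Against WT cortex, Q175 cortex at 3.2 mg/kg differed in 7 members, 1 higher and 6 lower, where 38.3% of all tested genes were called, 18.6% higher and 19.7% lower. The share of higher calls over all genes was 48.5% by this test and 67.7% on log2(FPKM + 0.1). Bmp4 was higher (0.36), and Inhba (-0.68), Fst (-1.66), Fstl4 (-0.48), Acvr1c (-0.41), Nog (-0.40) and Acvr1 (-0.15) were lower.

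At the lower doses a few cortical members were called. Acvr2a had 57.5, 68.3 and 71.8 CPM at 0.32 mg/kg and 60.6, 67.1 and 74.0 CPM at 1.0 mg/kg, against 56.7, 60.6 and 65.3 CPM on vehicle. It was the 1 member called at 0.32 mg/kg (0.15 ± 0.039, adjusted p = 0.0129), where 10.2% of all tested genes were called, and 1 of 2 called at 1.0 mg/kg (0.14 ± 0.039, adjusted p = 0.00928), where 20.7% were. With offsets for GC content and length both Acvr2a calls were lost. They were also lost with the L number of the library names as a term. The differences were then 0.13 at 0.32 mg/kg (adjusted p = 0.103) and 0.12 at 1.0 mg/kg (adjusted p = 0.0587). The other member called at 1.0 mg/kg was Fstl4, with 11.3, 19.5 and 22.1 CPM at 1.0 mg/kg, against 20.1, 22.1 and 23.1 CPM on vehicle (-0.27 ± 0.086, adjusted p = 0.0195). Females 1 and 4 of that arm, at 11.3 and 12 CPM, stood apart from the other 8 (17 to 22.1 CPM), and they also had the strongest trends of expression with GC content and length of all libraries. Without them the Fstl4 difference was -0.14 and did not pass (adjusted p = 0.13), and without female 4 alone it did not pass either (adjusted p = 0.055). At 0.32 mg/kg Fstl4 had 16.3, 19.0 and 20.8 CPM, against 20.1, 22.1 and 23.1 CPM on vehicle, and 8 of the 10 mice lay below the lowest vehicle mouse. That difference of -0.23 ± 0.086 did not pass (adjusted p = 0.0803), but it did without those females of the 1.0 mg/kg arm, who share the fit (-0.21, adjusted p = 0.0067), and with only the 2 arms compared (-0.20, adjusted p = 0.005).

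Because follistatin binds the product of Inhba, the ratio of Inhba to Fst in FPKM was described for each mouse, with no test. In striatum its lowest, median and highest values were 5.63, 7.77 and 20.7 in Q175 vehicle mice, 6.83, 10.4 and 17.6 at 0.32 mg/kg, 5.38, 6.80 and 10.7 at 1.0 mg/kg, 5.39, 16.2 and 22.1 at 3.2 mg/kg, and 1.36, 2.57 and 3.71 in WT mice. Every Q175 mouse therefore had a higher striatal ratio than every WT mouse, in whom both RNAs were more abundant than on vehicle. In cortex the values were 2.55, 4.01 and 5.70 in Q175 vehicle mice, 2.46, 3.12 and 5.16 at 0.32 mg/kg, 1.45, 2.53 and 4.44 at 1.0 mg/kg, 1.94, 4.28 and 6.34 at 3.2 mg/kg, and 1.34, 2.11 and 2.60 in WT mice, and there the groups overlapped. The low Fst counts of Q175 mice make single ratios imprecise, and RNA ratios do not measure protein.

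**Figure D4:**
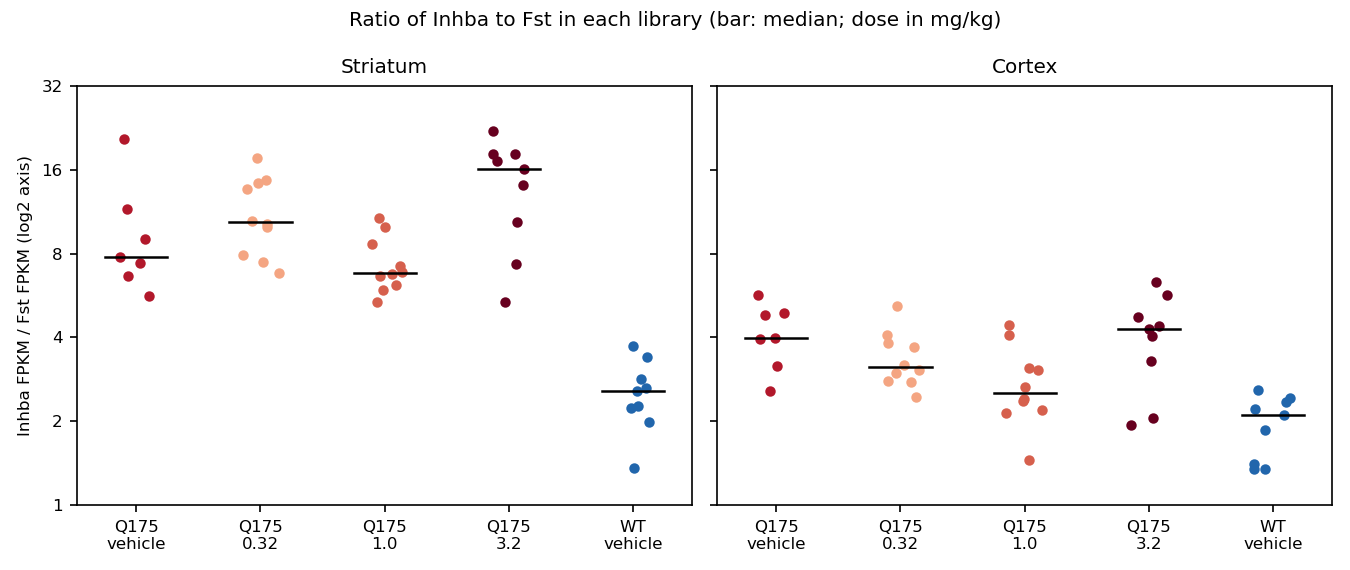
Ratio of Inhba to Fst in FPKM for every mouse, by arm and tissue, on a log axis, with points for mice and a bar for the median of each arm. The striatal medians are 7.77 on vehicle, 16.2 at 3.2 mg/kg and 2.57 in WT mice.

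Ordered over the 10 tissue-by-arm groups, scaled together, Inhba was highest in WT striatum (6.32 CPM) and in Q175 striatum at 3.2 mg/kg (6.0 CPM), which differed by less than their SDs. A middle set held Q175 striatum at 0.32 mg/kg (3.18 CPM), WT cortex (3.05 CPM), Q175 vehicle striatum (3.03 CPM) and Q175 striatum at 1.0 mg/kg (2.80 CPM), again within their SDs. The 4 Q175 cortex groups came last, at 1.58 to 1.90 CPM. For Fst, WT striatum (3.76 CPM) and WT cortex (2.30 CPM) were separate from each other and from all Q175 groups. The 8 Q175 groups followed at 0.456 to 0.855 CPM, cortex above striatum, and neighbours in that order overlapped.

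Genes with the most similar level pattern over the 10 group means, by Pearson's correlation of mean log2 CPM, were Ccnt2 (0.994), Inka2 (0.988), Cutc (0.981), Tspan7 (0.98) and Ptms (0.979) for Fst, and Arid3b (0.985), Kdm7a (0.98), Gtpbp1 (0.976), Hbegf (0.971) and Ccdc6 (0.97) for Inhba. These correlations rest on 10 points that share genotype, tissue and dose. Over the 45 striatum libraries, with arm and sex means removed, other genes led: Noct (0.563), Ybey (0.558), Tmie (0.543), Agtr1a (0.538) and Ggh (0.536) for Fst, and Dlgap2 (0.753), Wipf3 (0.73), Samd12 (0.723), Add2 (0.717) and Sipa1l1 (0.71) for Inhba. Among the members, Inhba correlated with Fstl4 at 0.603, with Acvr1c at 0.476 and with Fst at 0.165 over those libraries, which also share depth and composition effects.

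Of 72 other genes of activin, TGF-beta and BMP signalling with an identifier in the tables, 62 were tested in striatum. Of these 11 were higher and 21 lower in Q175 vehicle than in WT mice. Over all tested genes 21.9% were higher and 23.2% lower. The median log2 change of the 62 was -0.09, and that of all genes was 0. All 4 Id genes, transcriptional targets of BMP signalling, were lower. Id4 averaged 57.5 ± 3.4 CPM in Q175 vehicle mice and 111 ± 10.3 CPM in WT mice (log2 change -0.95 ± 0.067, adjusted p = 4.33e-16). Acvrl1, a type I receptor gene known from endothelium, averaged 24.3 CPM in Q175 vehicle mice and 53.9 CPM in WT mice (-1.17 ± 0.089, adjusted p = 4.51e-15). Of 8 endothelial and pericyte markers 1 was lower, and their part in the Acvrl1 change was not tested. The ligands Bmp7 (-0.84) and Bmp2 (-1.05), the ubiquitin ligase gene Smurf1 (-0.54), whose product acts on Smads and receptors, and the Smad co-repressor gene Ski (-0.26) were lower. Fstl5 (0.68), which encodes another follistatin-domain protein, and the BMP co-receptor gene Rgmb (0.36) were higher. These 8 were named as the called genes of the lists with the smallest p. That choice favours separate ranges, and the ranges of all 8 were separate between the groups.

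By role, 3 of the 6 tested other activin, inhibin and GDF ligand genes were lower and 1 higher, and 2 of 5 other BMP ligand genes were lower. Of 7 other activin and TGF-beta receptor genes 1 was lower, and of 5 BMP receptor and co-receptor genes 2 were higher. Of 15 other extracellular antagonist and follistatin-like genes 5 were lower and 3 higher, of 13 Smads and intracellular regulators 5 were lower and 3 higher, and of 7 TGF-beta ligand and latent binding protein genes 1 was lower and 2 higher. Over all genes the share called was 45.1%, and the lists are short.

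**Figure D5:**
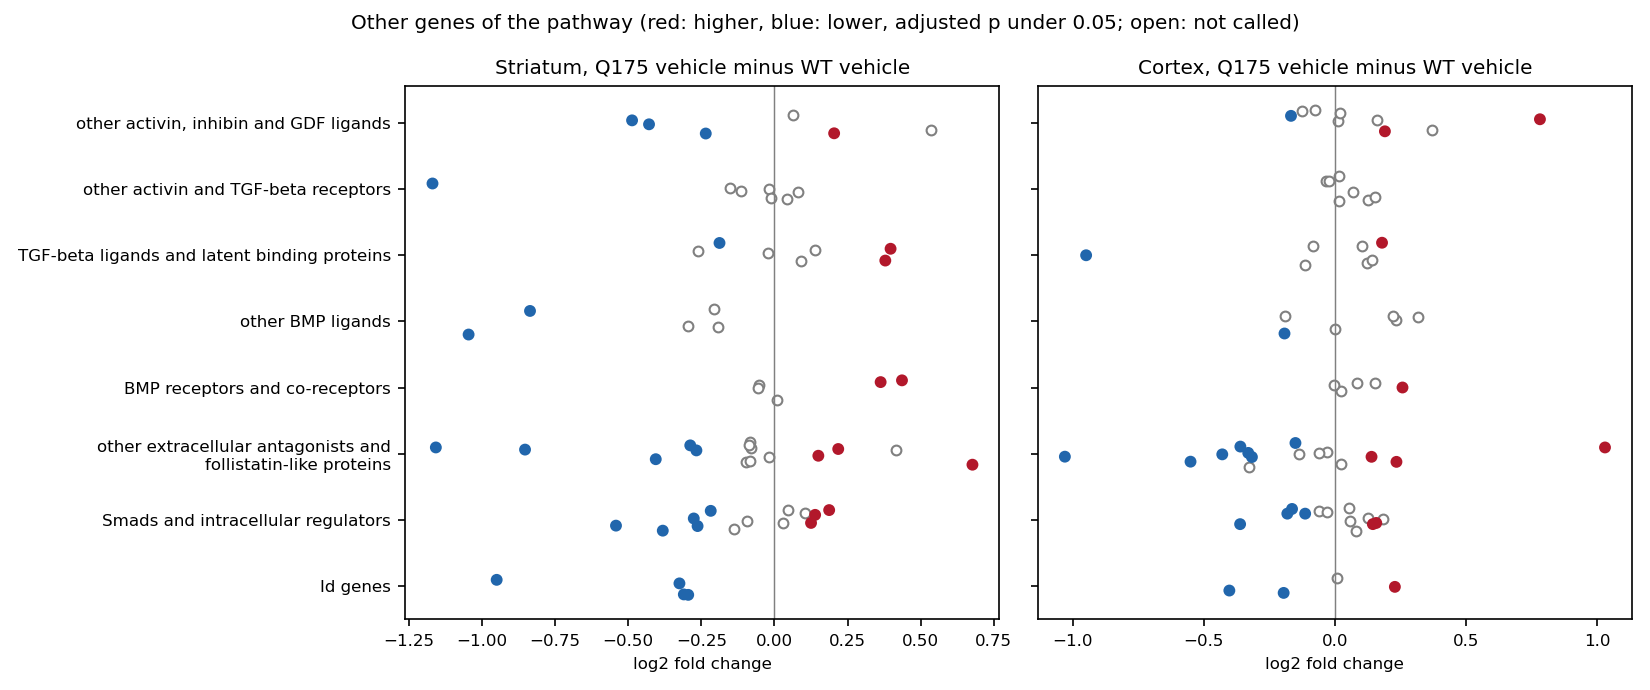
Log2 change in Q175 vehicle against WT mice for the tested genes of each list of the pathway, striatum on the left and cortex on the right, one row per list, with filled points for genes past an adjusted p of 0.05 (red higher, blue lower). In striatum all 4 Id genes lie below 0, and the lists of extracellular antagonists and of Smads hold called genes on both sides.

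In cortex 66 of the 72 were tested, 10 higher and 16 lower, with a median log2 change of 0.01, where 14.0% of all tested genes were higher and 16.4% lower. The antagonist genes Nbl1 (-0.55), Bambi (-0.43), Chrd (-0.33) and Bmper (-0.32), together with Ltbp2 (-0.95), Id4 (-0.40) and Smad3 (-0.36), which encodes a Smad activated by activin receptors, were lower, and Rgmb was higher (0.26). For 3.2 mg/kg against vehicle in striatum, 2 of the 62 were higher and none lower, where 1.48% of all tested genes were called in either direction. Skil, a Smad co-repressor gene, averaged 133 CPM at 3.2 mg/kg and 103 CPM on vehicle (0.35 ± 0.079, adjusted p = 0.00582), and Acvrl1 averaged 30.6 CPM at 3.2 mg/kg and 24.3 CPM on vehicle (0.35 ± 0.088, adjusted p = 0.0193), below its WT mean of 53.9 CPM. None of the 4 Id genes was called there.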

How the data were processed

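RNA-seq of total RNA was measured in striatum and cortex of the right hemisphere of 45 mice, 90 libraries, each mouse a separate animal per the labels. The authors deposited 1 estimated count per gene and library, without normalization, of which 81.5% were whole numbers (tolerance 1e-06). They also deposited FPKM values, scaled to gene length and library total. The submitters' processing notes name CASAVA 1.8.2 without its role, and no source used here gives the aligner, counting tool, genome build or strand setting. Names and positions came from GENCODE M21 on GRCm38 by Ensembl identifier (36639 of 38561 matched, 99.68% of counts).

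Estimated counts were rounded to whole numbers and tested with edgeR 4.0.16 (R 4.3.3), quasi-likelihood F test, TMM scaling, filterByExpr by arm, with arm and sex as terms over the 45 libraries of a tissue (17315 genes tested in striatum, 17603 in cortex). Tissue differences came from a fit of all 90 libraries with the mouse as a block (18014 genes). Striatum and cortex of a mouse are paired by the labels; their deviations from group means correlated with a median r of 0.117 (lowest -0.011). P-values were adjusted by Benjamini-Hochberg over all genes and called below 0.05. CPM are TMM-scaled within a tissue, and over both tissues where tissues are compared. Fold changes are on the log2 scale, with SE. Any 2 libraries of a group differed by more than counting error (chi-square over its degrees of freedom at least 3.31), so none was counted as a repeat deposit. The fits were tested on simulated data.

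The members and all gene lists were chosen with earlier results of these data known. All 10 members were tested in every comparison, and values of some that did not pass are left out. Of the pathway lists, up to 8 called genes with the smallest p are named per comparison; likeness uses the 5 highest correlations among named genes with a mean log2 CPM of at least 0. Alternatives were DESeq2 1.42.0 (test and size factors), limma 3.58.1 on log2(FPKM + 0.1) and log2(FPKM + 1), no filter, no sex term, only the arms compared, a replicate block, the L number of the library names as a term, and each library left out. Offsets for GC content and length (splines of 5 degrees of freedom), leaving out 2 cortical libraries, and sex interactions were added after seeing the data.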

Additional observations from a re-analysis of the deposited data

Results flagged for a closer look

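A sample lay far from the rest of its group in 6 of the 100 gene-by-group sets examined, where chance gives about 1 in 20. Inhbb in cortex of female 1 at 0.32 mg/kg was low, at 4.88 CPM with the next at 6.39 CPM. Fst in striatum of male 4 at 3.2 mg/kg was high, at 1.09 CPM with the next at 0.717 CPM. Fstl4 in cortex of male 3 at 3.2 mg/kg was low, at 17.5 CPM with the next at 20.5 CPM. Acvr2a was low in striatum of vehicle male 2 (42.6 CPM, next 46.4 CPM) and of female 5 at 0.32 mg/kg (35.5 CPM, next 41.6 CPM). Bmp4 in cortex of WT male 1 was low, at 1.40 CPM with the next at 2.15 CPM. Leaving out any of these libraries lost no call of the gene concerned.

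The genotype change differed between striatum and cortex, by the test of the difference itself, for Fst (-1.12 log2), Fstl3 (-0.70), Acvr1c (-0.47) and Acvr2a (0.23). The change at 3.2 mg/kg against vehicle differed between the tissues for Inhba (0.98).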

How the results depend on the processing

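Numbers of members called in Q175 vehicle against WT and in 3.2 mg/kg against WT were 8 and 7 in striatum and 7 and 7 in cortex with each of the 45 libraries of a tissue left out, as was the 1 member (Inhba) at 3.2 mg/kg against vehicle in striatum. With the L number as a term the striatal 8 and 7 became 7 and 6, both without Acvr2a; with GC and length offsets Inhbb was added to both cortical counts (8 and 8; 0.18, adjusted p = 0.0324, at 3.2 mg/kg against WT) and to the striatal vehicle count (9). Over the members' single values, counting members called in neither fit as unchanged, 1325 alternative values kept their call, 10 gained and 10 lost it, and with 1 library left out 4496 kept it, 3 gained and 1 lost it; no called value was reversed. Calls of members in cortex at 0.32 mg/kg numbered 1, but 0 with GC and length offsets or the L number as a term and 2 with only the arms compared or without females 1 and 4 of 1.0 mg/kg (1 to 2 with 1 library left out), the second being Fstl4. At 1.0 mg/kg they numbered 2, but 0 with the offsets and 1 with the L number, only the arms compared or without those females (1 to 3, with Acvr1 added without vehicle female 2). The striatal trend had 1, and 0 with the L number.

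Over all genes, cortex at 0.32 mg/kg had 1789 calls, but 224 with the offsets, 327 with the L number, 2822 with only the arms compared and 2778 without females 1 and 4 (923 to 2352 with 1 library left out). Cortex at 1.0 mg/kg had 3649, but 783, 1799 and 2138 with the offsets, only the arms compared and without those females. Cortex at 3.2 mg/kg had 0, 3 with DESeq2 and 1 without those females (0 to 1). Striatum at 0.32 mg/kg had 431, but 837 with DESeq2, 9 with the offsets, 81 with the L number, 140 with no filter, 63 with no sex term and 1358 with only the arms compared (3 to 805). Striatum at 1.0 mg/kg had 186, but 669, 1, 0, 56, 114 and 394 under the same alternatives in that order (22 to 766). Striatum at 3.2 mg/kg had 257 and 127 with the L number, and the trend had 304 and 117. The cause of these shifts was not tested.

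Replicate numbers across arms did not pair the mice (median r 0.014 in striatum and -0.003 in cortex; 6 and 9 of 45 libraries correlated best with their own number). With the replicate block, calls were 60 at 0.32 mg/kg and 1 at 1.0 mg/kg in striatum; without the mouse as a block (no replicate block), 143 in place of 231 genes passed for the tissue difference of the 3.2 mg/kg change. Log2(FPKM + 0.1) moved the median of all genes to 0.11 for Q175 vehicle against WT in striatum. Nog then passed for the tissue difference of the genotype change (0.42, adjusted p = 0.023). Fst in Q175 striatum rests on 9 to 38 reads per library.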

Other observations

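The genotype and 3.2 mg/kg changes were also compared between the sexes, a comparison chosen after seeing the data. No gene passed among all genes tested by edgeR's quasi-likelihood test. In striatum the males minus females difference in the Q175 vehicle against WT change was -1.47 ± 0.41 log2 for Fst (unadjusted p = 0.001, adjusted p = 0.223) and -0.93 ± 0.32 for Inhba (adjusted p = 0.289). For 3.2 mg/kg against vehicle it was 1.51 ± 0.44 for Fst (adjusted p = 0.997). The Q175 vehicle arm held 2 males.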
